A study of Mus musculus with 8 samples.

Results

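The genes described here are 9 members of the epidermal growth factor (EGF) family and its receptors: the ligands Ereg, Hbegf, Areg, Tgfa, Btc and Egf and the receptors Egfr, Erbb2 and Erbb3. Ereg and Hbegf were chosen by their array values, the log2 differences between fibres and saline in these same samples, so their differences are given below as a description with no test. The other 7 members belong to the set by family alone. On the arrays the 9 members had 11 probes (3 for Egfr, 1 for each of the others), out of 55672 probes kept. A filter on dim probes, which asks that a probe be well above background on both arrays of at least 1 group, left 22899 genes, 5 of them members: Ereg, Hbegf, Egf, Egfr and Erbb2. Ereg passed through its fibre arrays, because only 1 of its 2 saline arrays was above background.

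All RNA came from mature adipocytes of the 3T3-L1 line, a mouse preadipocyte line whose cells turn into fat cells in the dish. The cells received physiological saline (the control) or 1 of 3 asbestos fibres, chrysotile, crocidolite or amosite, and total RNA was taken after 72 h. Chrysotile is a curled serpentine fibre, and crocidolite and amosite are straight, iron-rich amphibole fibres. Each fibre was given at 10 mg/cm2, per the labels, and that unit was not verified. There were 2 arrays in each of the 4 groups, 8 in all, and whether the 2 came from separate cultures is not stated. The p-values below therefore reflect the spread between these arrays alone, and that spread may be technical.

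EGF family ligands are made as precursors anchored in the cell membrane, and proteases of the ADAM family cut them loose. The free ligand binds EGFR or a related ERBB receptor on the same or a nearby cell, the receptors pair, and the RAS-ERK kinase cascade is switched on. EGF and TGF-alpha are known to hold back the differentiation of preadipocytes, and HB-EGF is made in fat tissue. In mesothelial cells asbestos is known to activate EGFR, which is background here and was not measured.

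Each array probe was 60 bases long, and the following 30-base starts, given 5′ to 3′ in lower case, show which stretches of RNA the values describe. Ereg, Areg and Btc lie next to each other on mouse chromosome 5 together with Epgn, a further EGF family ligand that is no member, and the first 4 sequences are their probes in map order. The last 3 are the Egfr probes, shown because they did not behave alike. Positions are those of the file headers (build mm9), each spans the whole probe, and the part of the transcript that each probe covers was not analysed here.
Epgn, chr5:91464119-91464178, plus strand: tcagccccgtttctaaccctcaaataccca
Ereg, chr5:91522553-91522612, plus strand: gatagtcatgtaccttgacatagtgaagga
Areg, chr5:91570090-91570149, plus strand: ctcagaggagtatgataatgaaccacaaat
Btc, chr5:91786948-91787007, minus strand: ggatccttgtacattttactttacaagaga
Egfr variant 1 probe, chr11:16813815-16813874, plus strand: gttgcaagccactctaactgtagcaatgaa
Egfr variant 2 probe a, chr11:16787172-16787231, plus strand: gaagtgtggccatctgggtacgttcaatgg
Egfr variant 2 probe b, chr11:16783556-16783615, plus strand: tctggaagtatgcagatgccaataatgtct

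The longest run of bases shared by any pair of member probes was 10, between Erbb2 and Erbb3, so no member probe matched another over most of its length. The remaining probes lay at chr18:36664738-36664797 (Hbegf, minus strand), chr6:86224838-86224897 (Tgfa), chr3:129380826-129380885 (Egf, minus strand), chr11:98298103-98298162 (Erbb2) and chr10:128006424-128006483 (Erbb3, minus strand). The probes of Tgfa, Egf and Erbb2 and the Egfr variant 1 probe were each printed at 10 spots, and the others at 1 spot.

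Values are log2 intensities minus the 75th percentile of the same array, called centred log2 levels below. A level of 0 is the brightness of that percentile, and a difference of 1 is a 2-fold change. Between 31286 and 34973 probes per array (56.2% to 62.8%) were well above background, and the number of arrays limits the precision. A level of one probe cannot be set against that of another.

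Ereg encodes epiregulin, a ligand of EGFR and ERBB4. Its centred log2 levels were -4.05 and -4.28 on the saline arrays, -2.42 and -2.48 with chrysotile, -2.61 and -3.03 with crocidolite, and -3.18 and -3.56 with amosite. Every fibre array lay above both saline arrays, and no group overlapped another: chrysotile was highest, then crocidolite, then amosite, then saline. In linear intensity the Ereg probe read 23.4 and 17.5 with saline, 76.1 and 79.5 with chrysotile, 74.1 and 54.1 with crocidolite, and 44.1 and 33.7 with amosite, all of it in the dim part of the range.

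The Ereg level was 1.72 ± 0.20 higher with chrysotile than with saline (log2 difference ± SE of the fit, 2 arrays a group), a 3.29-fold difference. This and the next values are uncertain at their lower end, since 1 of the 2 saline arrays was not above background. With crocidolite the Ereg difference was 1.34 ± 0.20, or 2.54-fold, and with amosite 0.79 ± 0.20, or 1.74-fold. Within pairs of same-numbered arrays the Ereg differences from saline were 1.63 and 1.81 for chrysotile, 1.44 and 1.25 for crocidolite, and 0.87 and 0.72 for amosite, so both pairs gave similar sizes. Under normexp background correction with an offset of 50 added to every intensity, the same differences were 0.48, 0.26 and 0.11, and the order of the 4 groups was as before.

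Genes whose 4 groups all lie apart were uncommon: 182 of the 22899 genes tested (0.795%) had no overlap between any groups, and 22 (0.0961%) had them in the order seen for Ereg. These counts give the background and no support, since Ereg was picked for this pattern.

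Between fibres, the Ereg level was 0.37 ± 0.20 higher with chrysotile than with crocidolite, 0.92 ± 0.20 higher with chrysotile than with amosite, and 0.55 ± 0.20 higher with crocidolite than with amosite. The step from crocidolite to chrysotile was the smallest of these. Without crocidolite array 1 it was 0.58, and without crocidolite array 2 it was 0.16.

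Hbegf encodes heparin-binding EGF-like growth factor, a ligand of EGFR and ERBB4 that also binds heparan sulphate. Its centred log2 levels were -3.54 and -4.12 with saline, -3.00 and -2.67 with chrysotile, -3.25 and -2.64 with crocidolite, and -3.46 and -3.43 with amosite. Every fibre array again lay above both saline arrays, but the chrysotile and crocidolite arrays overlapped, and the amosite arrays lay just above the brighter saline array. The Hbegf probe was above background on all 8 arrays, at intensities of 19.6 to 70.8.

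The Hbegf level was 0.99 ± 0.27 higher with chrysotile than with saline (log2 difference ± SE, a 1.99-fold difference), 0.88 ± 0.27 higher with crocidolite (1.84-fold) and 0.38 ± 0.27 higher with amosite (1.30-fold). These values rest unevenly on the array pairs: the first pair gave 0.54, 0.29 and 0.08 and the second pair 1.44, 1.47 and 0.69. The second saline array was 0.58 below the first, and the second chrysotile and crocidolite arrays were 0.33 and 0.60 above the first. Without the second saline array the Hbegf differences were 0.70, 0.59 and 0.09. Under the normexp correction they were 0.22, 0.13 and -0.01, and the fibre arrays no longer all lay above saline. Over all genes, 462 (2.02%) had every fibre array above both saline arrays.

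**Figure D1:**
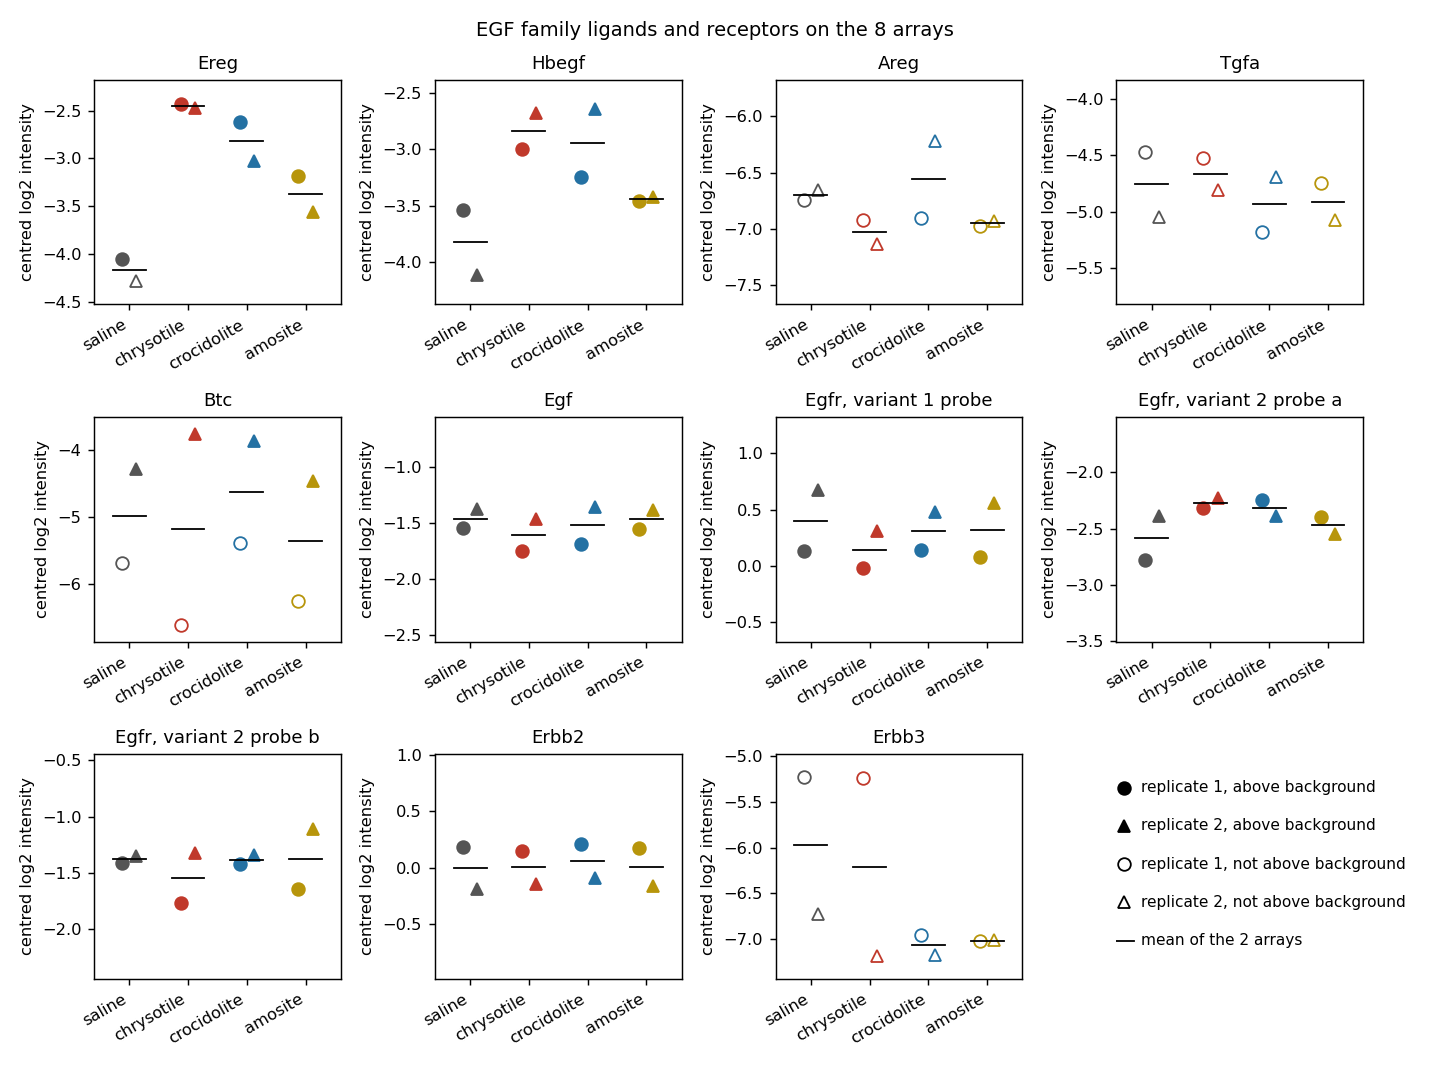
Centred log2 intensity (log2 intensity minus the array's 75th percentile, vertical axis) of the 11 probes of the 9 members on each of the 8 arrays, by group; circles are replicate 1, triangles replicate 2, open symbols are not well above background, and short lines are group means. Ereg falls from chrysotile (-2.42 and -2.48) to saline (-4.05 and -4.28) with no overlap between groups, while Btc separates by replicate number in all 4 groups.

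Between fibres, the Hbegf level was 0.11 ± 0.27 higher with chrysotile than with crocidolite, a difference within the spread of the arrays. It was 0.61 ± 0.27 higher with chrysotile than with amosite and 0.50 ± 0.27 higher with crocidolite than with amosite, both without overlap. Under the normexp correction crocidolite and amosite overlapped for Hbegf, with crocidolite array 1 at -2.15 and the amosite arrays at -2.13 and -2.14. Without that correction, Ereg and Hbegf shared the low position of amosite among the fibres, and only Ereg kept chrysotile apart from crocidolite. Over the 8 arrays their levels had a Pearson correlation of 0.81, and 49 of 625 other genes with a range of at least 1 between group means were more like Ereg than Hbegf was. The 8 arrays form 4 groups, so this correlation mostly restates the group means.

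Of the 4 remaining ligands only Egf passed the filter on dim probes, and it gave no difference like these. Areg encodes amphiregulin and Tgfa transforming growth factor alpha, both ligands of EGFR. Neither was well above background on any of the 8 arrays, with Areg levels between -7.13 and -6.21 and Tgfa levels between -5.18 and -4.47. No level of Areg or Tgfa can be ordered between groups. On the Tgfa probe, the 10 spots within an array had an SD of 0.34 to 0.68, and the Tgfa group means lay between -4.94 and -4.66.

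Btc encodes betacellulin, a ligand of EGFR and ERBB4. Its probe was above background on 4 of 8 arrays, the second array of every group. The Btc levels were -5.68 and -4.28 with saline, -6.61 and -3.75 with chrysotile, -5.39 and -3.85 with crocidolite, and -6.25 and -4.46 with amosite. The second array exceeded the first by 1.40, 2.86, 1.53 and 1.80 in these groups, and the groups overlapped throughout, so the Btc arrays sorted by replicate number within every group.

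Egf encodes the EGF precursor, a large membrane protein. Its levels were -1.55 and -1.37 with saline, -1.75 and -1.46 with chrysotile, -1.68 and -1.36 with crocidolite, and -1.55 and -1.38 with amosite. All groups overlapped. The Egf differences from saline were -0.15 ± 0.17, -0.06 ± 0.17 and -0.01 ± 0.17 for chrysotile, crocidolite and amosite, with a 95% interval of -0.57 to 0.27 for the first, so a 2-fold change lay outside it.

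Epgn, the neighbour of Ereg on chromosome 5, encodes epigen, a ligand of EGFR. Its levels were -4.44 and -3.79 with saline, -4.09 and -3.74 with chrysotile, -3.55 and -3.66 with crocidolite, and -3.93 and -3.14 with amosite. Chrysotile and amosite overlapped saline, and crocidolite did not. The first saline array of Epgn was below background, so its distance from saline is uncertain. In the order Epgn, Ereg, Areg and Btc along the chromosome, only Ereg had all fibre arrays above saline, and it was chosen by those differences. Areg was below background and Btc was below background on 4 of 8 arrays, so neither can be set against Ereg.

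**Figure D2:**
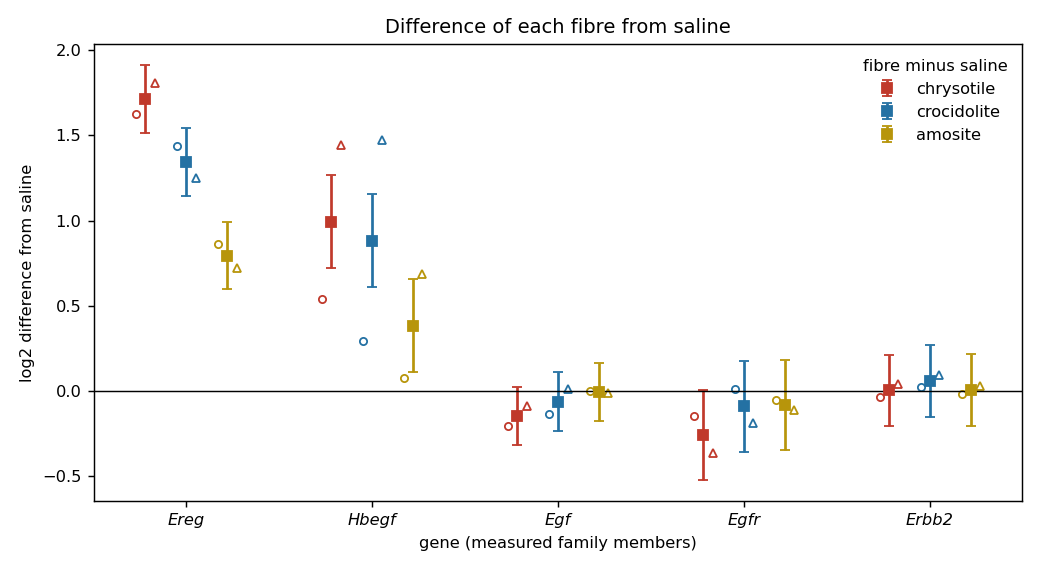
Log2 difference from saline (vertical axis) of the 5 members that passed the filter on dim probes, for each fibre; squares are the difference of group means with its SE, circles and triangles the differences within replicate 1 and replicate 2. Ereg lies at 1.72, 1.34 and 0.79 and Hbegf at 0.99, 0.88 and 0.38 for chrysotile, crocidolite and amosite, while Egf, Egfr and Erbb2 lie near 0.

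Among the receptors, Egfr is the one that Ereg, Hbegf and Egf bind. The Egfr probe taken for the gene, the brightest of its 3, is designed on transcript variant 1 of the file's annotation. Its levels were 0.13 and 0.67 with saline, -0.02 and 0.31 with chrysotile, 0.14 and 0.48 with crocidolite, and 0.08 and 0.56 with amosite. All groups overlapped. The Egfr differences from saline were -0.26 ± 0.27, -0.09 ± 0.27 and -0.08 ± 0.27, and the 95% interval of the first ran from -0.90 to 0.39.

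The other Egfr probes lie on transcript variant 2. Probe a read -2.78 and -2.39 with saline, -2.31 and -2.23 with chrysotile, -2.24 and -2.39 with crocidolite, and -2.40 and -2.54 with amosite. Its chrysotile and crocidolite arrays lay at or just above the brighter saline array, with differences of 0.31 ± 0.17 and 0.27 ± 0.17, and the amosite arrays overlapped saline. Fitted over single probes, the limma adjusted p-values were 0.956 and 0.801, so neither passed. Probe b gave differences of -0.17 ± 0.22, -0.00 ± 0.22 and 0.00 ± 0.22, all with overlap. The 3 Egfr probes thus differed in sign for chrysotile, and the difference between them was not tested.

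Erbb2 encodes the receptor that has no known ligand of its own and pairs with the others. Its levels were 0.19 and -0.19 with saline, 0.15 and -0.15 with chrysotile, 0.21 and -0.10 with crocidolite, and 0.17 and -0.16 with amosite. The Erbb2 differences from saline were 0.00 ± 0.21, 0.06 ± 0.21 and 0.01 ± 0.21, with a 95% interval of -0.51 to 0.51 for chrysotile. Erbb3, a receptor with little kinase activity that binds neuregulins, was not well above background on any of the 8 arrays and has no order between groups.

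In the limma fit over all genes, 0 of the 3 tested members other than Ereg and Hbegf passed an adjusted p of 0.05 in any of the 6 comparisons, and none had an unadjusted p under 0.05. The lowest adjusted p among them was 0.943 for chrysotile against saline, 0.955 for crocidolite and 0.99996 for amosite. Over all 22899 genes, 0% passed in each comparison, and 5.48%, 7.3% and 2.66% had an unadjusted p under 0.05 for chrysotile, crocidolite and amosite against saline. The shares between fibres were 2.76% for chrysotile against crocidolite, 4.33% for chrysotile against amosite and 5.14% for crocidolite against amosite. With the replicate number as a block, Egfr with chrysotile had an unadjusted p of 0.0477 and an adjusted p of 0.473, and 0 members passed.

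Of the 5 members that passed the filter on dim probes, 1 (Ereg) was at least 2-fold higher with no overlap for chrysotile against saline and for crocidolite against saline, beside 0.808% and 0.786% of all genes. None of the 5 was 2-fold lower with no overlap, beside 0.472% and 0.935%. For amosite against saline the count was 0 of the 5 either way, beside 0.389% higher and 0.345% lower. It was also 0 either way between fibres, beside 0.795% higher and 0.319% lower for chrysotile against crocidolite, 0.769% and 0.389% for chrysotile against amosite, and 0.668% and 0.764% for crocidolite against amosite. Without a size limit, 2 members (Ereg and Hbegf) lay wholly above saline with each fibre, beside 14.3%, 14.6% and 8.19% of all genes for chrysotile, crocidolite and amosite. None of the 5 lay wholly below saline with any fibre, beside 15.3%, 19.9% and 12.9% of all genes. Between fibres, 1 member (Ereg) lay wholly higher with chrysotile than with crocidolite, beside 12.8%, and 2 (Ereg and Hbegf) with chrysotile than with amosite and with crocidolite than with amosite, beside 17.8% and 17.6%. None of the 5 lay wholly lower in these 3 comparisons, beside 10.5%, 15.6% and 20.3%. The 4 members left out of these counts (Areg, Tgfa, Btc and Erbb3) were below background on at least 4 of 8 arrays, and their order below background is not read. The rule chose Ereg and Hbegf on these contrasts, so nothing is read from the counts that hold them.

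Several members varied with the replicate number more steadily than with the treatment. The second array exceeded the first by 0.33 to 0.54 for the Egfr variant 1 probe and by 0.17 to 0.32 for Egf in all 4 groups, and it fell short of the first by 0.29 to 0.37 for Erbb2. Ereg was also lower on the second array of each group, by 0.05 to 0.42, which is less than its differences from saline. The largest of these, 0.42 with crocidolite, exceeded the Ereg difference of 0.37 between chrysotile and crocidolite. Over all genes, 17.4% were higher and 19.4% lower on the second array in all 4 groups. Within an array, the 10 spots of the Egfr variant 1 probe had an SD of 0.047 to 0.110, less than the difference between the 2 arrays of any group. Per the file headers, one index of an array's place on the slide was its replicate number and the other its group, so place on the slide and group cannot be told apart.

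**Figure D3:**
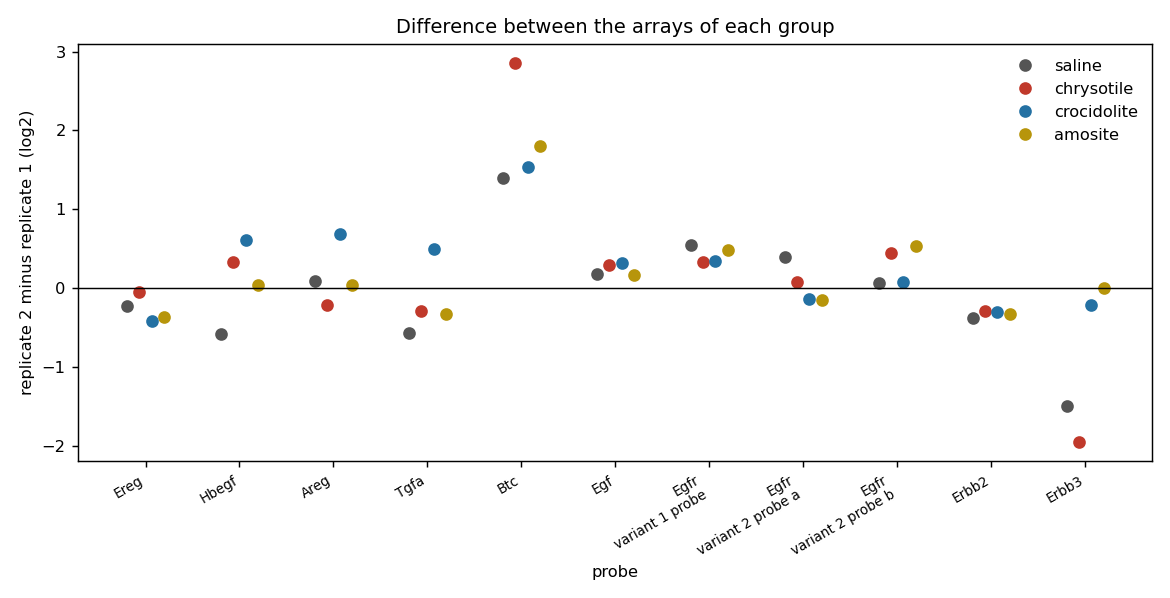
Difference between the 2 arrays of each group (replicate 2 minus replicate 1, log2, vertical axis) for each of the 11 member probes, with 1 point per group. Btc lies between 1.40 and 2.86 and Erbb2 between -0.37 and -0.29 in all 4 groups, whereas Hbegf, Areg and Tgfa scatter around 0.

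Genes around the receptor were read from 5 lists of 64 genes, of which 59 passed the filter on dim probes. Erbb4, Nrg2, Nrg3, Spred3 and Epha4 did not. The lists were chosen with earlier results of these data known, so their values are given as a description. In the limma fit 0 of the 59 passed an adjusted p of 0.05 in any of the 6 comparisons, with or without the replicate block. At an unadjusted p under 0.05, 6 were higher and 2 lower with chrysotile than with saline, 6 higher and 3 lower with crocidolite, and 0 higher and 1 lower with amosite. Over all 22899 genes these counts were 650 and 606, 656 and 1016, and 249 and 361.

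The list of ERK-responsive targets holds genes that the RAS-ERK cascade switches on, and 13 of its 14 genes were measured. Its median log2 difference from saline was 0.37 with chrysotile, 0.20 with crocidolite and 0.04 with amosite, beside -0.01, -0.02 and -0.02 over all genes. The difference was above 0 for 12, 9 and 8 of the 13, beside 48.9%, 46.3% and 44.7% of all genes. Arrays lay wholly above saline for 6, 5 and 2 genes, or 46.2%, 38.5% and 15.4%, beside the 14.3%, 14.6% and 8.19% given above. Because the list was chosen with earlier results known, these shares describe it and give no support.

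Fosl1, which encodes the AP-1 subunit FRA-1, had the widest difference of this list. Its levels were -1.69 and -2.01 with saline, -0.19 and 0.78 with chrysotile, 0.29 and -0.24 with crocidolite, and -1.60 and -2.07 with amosite. The chrysotile and crocidolite arrays lay far above saline and amosite, which overlapped each other. The Fosl1 difference from saline was 2.14 ± 0.37 (4.42-fold) with chrysotile and 1.87 ± 0.37 (3.67-fold) with crocidolite, with limma adjusted p-values of 0.856 and 0.493, which did not pass. Fosl1 thus placed amosite with saline, whereas Ereg placed it between saline and the other fibres.

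Etv5, an ETS transcription factor, read 0.00 and -0.10 with saline, 0.58 and 0.99 with chrysotile, 0.39 and 0.59 with crocidolite, and -0.22 and 0.03 with amosite. Ier3, an immediate early gene, read -0.29 and -0.21 with saline, 0.35 and 0.67 with chrysotile, 0.58 and 0.52 with crocidolite, and -0.27 and -0.10 with amosite. For both genes the chrysotile and crocidolite arrays lay above all saline and amosite arrays. The differences from saline were 0.83 ± 0.18 and 0.54 ± 0.18 for Etv5 and 0.76 ± 0.15 and 0.81 ± 0.15 for Ier3, and none passed the adjusted threshold.

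Etv4, a relative of Etv5, differed from saline by 0.68 ± 0.17 with chrysotile, -0.03 ± 0.17 with crocidolite and 0.28 ± 0.17 with amosite, and only its crocidolite arrays overlapped saline. The AP-1 gene Junb differed by 0.82 ± 0.54 with chrysotile and 0.67 ± 0.54 with crocidolite, both with overlap. Fos, another AP-1 gene, differed by 0.61 ± 0.53 with chrysotile, with overlap, and by 0.87 ± 0.53 with crocidolite, without. In both AP-1 genes the second chrysotile array was over 1 above the first, and with the replicate block the SE of these differences was 0.23. Myc, a growth regulator, differed by -0.22 ± 0.13 and -0.32 ± 0.13 with chrysotile and crocidolite. Jun with amosite differed by -0.17 ± 0.14.

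Feedback inhibitors of the receptor and of ERK, with 15 of 16 genes measured, had medians of 0.03, 0.01 and 0.01 for chrysotile, crocidolite and amosite against saline. The ERK phosphatase gene Dusp6 differed by 0.38 ± 0.15 and 0.34 ± 0.15 with chrysotile and crocidolite, and the ERK pathway inhibitor gene Spred1 by 0.38 ± 0.17 and 0.46 ± 0.17, all without overlap. Dusp5, a nuclear ERK phosphatase gene, differed by 0.69 ± 0.40 with chrysotile, and its saline level was above background on 1 of 2 arrays. Spry4 differed by 0.45 ± 0.26 with crocidolite and 0.26 ± 0.26 with amosite. Spred2 differed by -0.24 ± 0.30 with amosite.

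The list of ligand shedding genes, all 10 measured, had medians of 0.00, 0.03 and -0.04. Adam17, the main sheddase of several EGFR ligands, differed by -0.11 ± 0.14, -0.09 ± 0.14 and -0.11 ± 0.14. Timp3, an inhibitor of ADAM17, read -3.28 and -3.25 with saline, -2.78 and -2.91 with chrysotile, -3.59 and -2.88 with crocidolite, and -4.50 and -4.70 with amosite. The amosite arrays lay below all others, at -1.34 ± 0.24 from saline (2.53-fold lower, limma adjusted p of 0.99996), and 1 of the 2 was above background. Rhbdf1, which encodes a partner of ADAM17, differed by 0.26 ± 0.11 and 0.36 ± 0.11 with chrysotile and crocidolite, and Adam9 by 0.37 ± 0.15 with crocidolite. Rhbdl2, a membrane protease gene, differed by -0.39 ± 0.42, -0.40 ± 0.42 and 0.62 ± 0.42, and Adam12 by -0.13 ± 0.12 with amosite.

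Adaptors and the RAS-ERK cascade, all 18 measured, had medians of -0.07, -0.04 and -0.05. Gab1, a docking protein downstream of EGFR, read -0.63 and -0.76 with saline, -1.24 and -1.20 with chrysotile, -1.06 and -0.94 with crocidolite, and -0.93 and -0.96 with amosite. All fibre arrays of Gab1 lay below saline, with a difference of -0.52 ± 0.11 for chrysotile (limma adjusted p of 0.872). Pik3r1, a regulatory subunit of PI3 kinase, differed by -0.33 ± 0.12 with chrysotile and with crocidolite, both without overlap. Src and Sos1 differed by -0.73 ± 0.45 and -0.39 ± 0.43 with chrysotile, and both overlapped saline.

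Of the ligands and receptors outside the 9 members, 3 of 6 passed the filter. Nrg4, a neuregulin that fat cells secrete, differed by 0.11 ± 0.14, 0.32 ± 0.14 and -0.05 ± 0.14 from saline, and Nrg1 by 0.03 ± 0.14, -0.00 ± 0.14 and 0.05 ± 0.14. Epgn differed by 0.20 ± 0.32, 0.51 ± 0.32 and 0.58 ± 0.32.

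**Figure D4:**
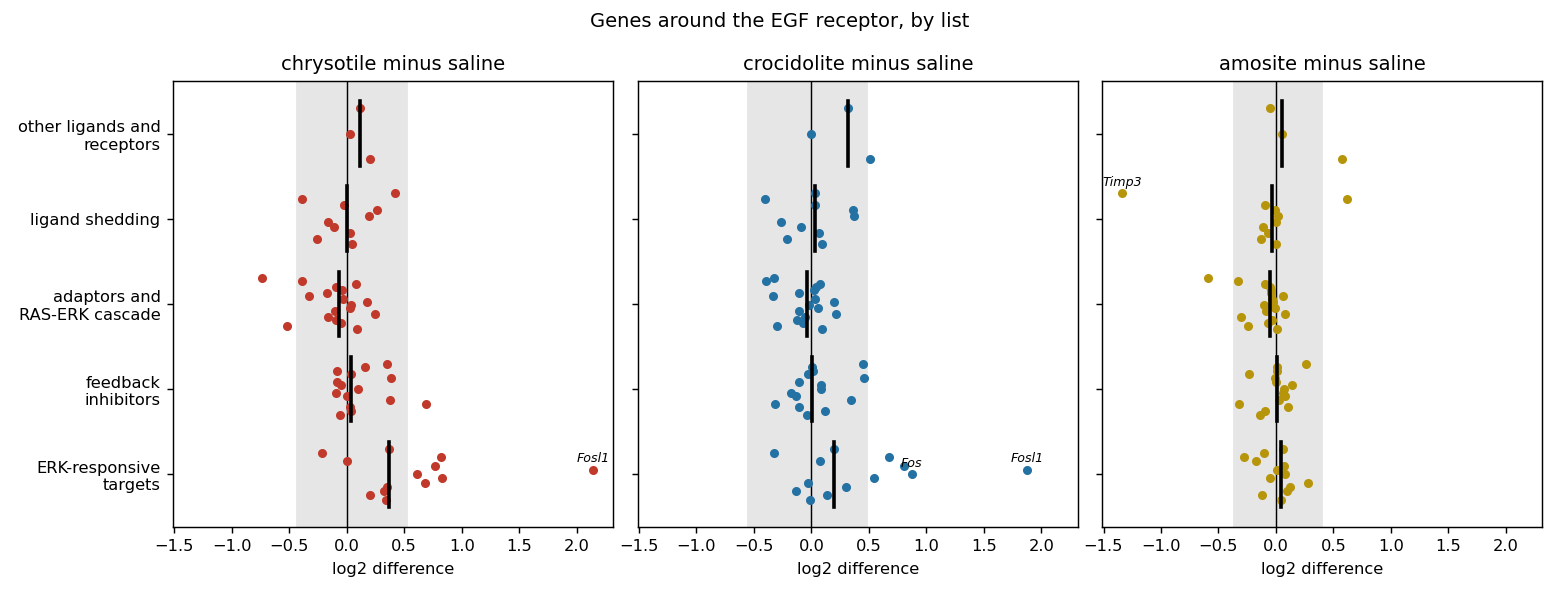
Log2 difference from saline (horizontal axis) of the 59 measured genes of the 5 lists around the EGF receptor, 1 point per gene, with the list's median as a black bar; the grey band runs from the 5th to the 95th percentile of all 22899 genes tested and the farthest genes are named. The ERK-responsive targets have medians of 0.37, 0.20 and 0.04, with Fosl1 at 2.14 and 1.87 for chrysotile and crocidolite, and Timp3 lies at -1.34 for amosite. The lists were chosen with earlier results of these data known.

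By Pearson correlation over the 8 arrays, among 625 genes with a symbol and a range of at least 1 between group means, the genes most like Ereg were Gm4131 (0.95), Plaur (0.94), Steap1 (0.93), Styk1 (0.93) and 4930486L24Rik (0.92). Plaur encodes the urokinase receptor. It read -3.19 and -2.84 with saline, -1.54 and -1.53 with chrysotile, -2.00 and -2.15 with crocidolite, and -2.34 and -2.80 with amosite, the order of Ereg with amosite close to saline. Steap1, a membrane protein gene, had group means of -0.39, -0.88, -1.47 and -1.72 from chrysotile to saline in the same order. Its amosite arrays (-1.07 and -1.87) overlapped its saline arrays (-1.47 and -1.96). Styk1 was above background on 3 of 8 arrays, Gm4131 on 6 and Plaur on 7, so their values below background carry little information.

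The genes most like Hbegf were Mustn1 (0.94), Styk1 (0.92), Tmem176a (0.88), Olr1 (0.87) and Inava (0.87). Mustn1 had group means of 0.43 with saline, 1.43 with chrysotile, 1.48 with crocidolite and 0.69 with amosite. Olr1, which encodes a receptor for oxidised lipoprotein, had -4.36, -2.74, -2.72 and -4.06, and was above background on 6 of 8 arrays. Both had chrysotile and crocidolite together and amosite nearer to saline, a likeness to Hbegf for which they were picked. Inava had -1.24, 0.07, -0.46 and -1.27, with chrysotile above crocidolite.

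Markers of the cells were read on the same arrays. All 8 adipocyte markers, among them Adipoq and Fabp4, were above background on all 8 arrays. Their summed level (log2 of the summed centred intensities) was 11.26 to 11.61 with saline and 11.29 to 11.38 with chrysotile. It was 11.25 to 11.32 with crocidolite and 11.29 to 11.34 with amosite. From saline, Adipoq differed by -0.19, -0.20 and -0.17 with chrysotile, crocidolite and amosite, and Slc2a4 by -0.32, -0.29 and -0.07. Plin1 differed by -0.21, -0.14 and -0.06, Cfd by -0.11, -0.23 and -0.16, and Lep by -0.15, -0.22 and -0.25. Cebpa differed by -0.14, -0.11 and -0.02, Pparg by -0.02, 0.06 and 0.03, and Fabp4 by 0.01, -0.03 and -0.05. The 8 preadipocyte or fibroblast markers, also above background on all arrays, summed to between 8.74 and 9.19 over the 8 arrays. Within them Ly6a differed from saline by 0.82 and 0.78 with chrysotile and crocidolite, and Thy1 by 0.43 and 0.29. Postn differed by -0.45 and -0.61 and Dlk1 by -0.23 and -0.38. Pdgfra differed by 0.07 and 0.23, Pdgfrb by 0.01 and 0.07, Cd34 by -0.09 and -0.03, and Col1a1 by -0.03 and -0.04. Of 8 macrophage markers 6 were measured, with sums of 6.06 to 6.21, 6.02 to 6.24, 5.95 to 6.12 and 5.96 to 6.06. Lyz2 was above background on 0 arrays and Adgre1 on 3, while Cd14, Mpeg1 and Cd68 differed from saline by 0.70, 0.96 and 0.60 with chrysotile and by 0.96, 0.99 and 0.41 with crocidolite. Csf1r differed by -0.45, -0.37 and -0.46 with chrysotile, crocidolite and amosite, Itgam by 0.01, -0.11 and -0.10, and Ptprc by -0.18, 0.06 and 0.29. Of 8 epithelial or mesothelial markers 4 were measured, with sums of 2.42 to 2.77, 2.37 to 2.64, 2.45 to 2.48 and 2.43 to 2.70. Epcam and Cdh1 were above background on 0 arrays, and Wt1 differed from saline by 1.65, 2.15 and 0.45 with chrysotile, crocidolite and amosite. Msln differed by -0.09, -0.03 and 0.03, Krt18 by -0.20, -0.27 and -0.07, and Krt8 by 0.37, 0.18 and -0.19. All 4 sums overlapped between saline and each fibre. Each sum adds linear intensities and mostly follows its brightest probes, such as Itgam (5.93 with saline) and Krt18 (2.00). A change in a dimmer marker, such as Cd14 (-0.14 with saline) or Wt1 (-4.04), hardly moves it. No cell content is therefore read from the overlap, and the part of these markers in the Ereg and Hbegf values was not tested. In bulk RNA, more cells that make a transcript and more transcript per cell cannot be told apart.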

How the data were processed

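Total RNA carried a Cy3 label on one-colour Agilent mouse arrays. Per the file headers and labels, the authors read the 8 arrays, all on 1 slide and scanned on 1 date, with Agilent Feature Extraction (10.7 per the submitters' processing notes, 10.7.1.1 per the file headers). The deposited values are linear intensity, the processed signal, with the scanner software's background subtraction and unscaled between arrays. A value table that was also deposited differed from it by at most 0.

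Control spots and 99 to 183 flagged spots per array were removed, replicate spots averaged, and 9 of 55681 probes dropped. Log2 intensity was centred on each array's 75th percentile. A probe counted as well above background where the scanner called more than 50% of its spots so. The 33042 probes passing the filter gave 22899 genes, 15291 of them with a symbol, each represented by its brightest probe. Symbols of 26766 probes came through their transcript accession from RefSeq names (GRCm38.p6), of which no coordinates were used. All 4 groups entered 1 limma fit (limma 3.58.1, R 4.3.3; lmFit and eBayes, 4 residual and 2.22 prior degrees of freedom), two-sided, with Benjamini-Hochberg adjustment over all genes at 0.05. The fit was tested on simulated data.

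Same-numbered arrays deviated together (correlations of 0.25 to 0.46 in 6 pairs of groups), so the replicate number was also fitted as a block. The members and gene lists were chosen with earlier results of these data known. All members are named, with the 3 largest absolute differences from saline per list and fibre, any gene called, and the 5 genes most like Ereg and the 5 most like Hbegf; a few further list genes (Adam17, Myc and single cell type markers, and named genes with other fibres) were added after their values were seen. One gene that the rule names is not reported here. Alternatives were normexp correction, quantile normalization, other filters on dim probes, the mean over probes, the deposited values, a trended and robust prior, 2 groups alone, the replicate block, and each array left out.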

Additional observations from a re-analysis of the deposited data

How the results depend on the processing

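The counts of members passing the filter that were at least 2-fold apart with no overlap depended on dim signals. Against saline, the count of 1 for chrysotile was 0 under normexp correction and 2 under quantile normalization. It was 0 when probes had to be bright on all arrays, and leaving out 1 array gave 1 to 3. The 2 without saline array 1 were Ereg and Hbegf. The 3 without chrysotile array 1 were Ereg, Hbegf and Btc, all higher. The count of 1 for crocidolite was 0 under normexp, 2 under quantile normalization and 0 with probes bright on all arrays. With no filter on dim probes it was 2, Ereg higher and Erbb3 lower, and Erbb3 was not above background on any array. Leaving out 1 array gave 1 to 3. The 2 without saline array 1 were Ereg and Hbegf. The 3 without crocidolite array 1 were Ereg, Hbegf and Btc, all higher. For amosite against saline the count of 0 was 1 with no filter on dim probes, from Erbb3, which was lower. It was 0 to 1 with 1 array left out (1 without saline array 1, from Btc, which was lower). For chrysotile against amosite it was 0 to 1, with Btc higher without chrysotile array 1 and Ereg higher without amosite array 1. For crocidolite against amosite it was 0 to 1, with Btc higher without crocidolite array 1. With 1 array left out, the overlap rule compares fewer arrays and passes more readily. The filter on dim probes is then also met by 1 bright array in that group. Btc entered in this way, through second arrays alone, and its arrays sorted by replicate number, so its counts are not read.

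The Ereg difference kept its sign in all 96 settings over 6 comparisons, which is no sign of stability in a gene picked for that direction, and Hbegf changed sign in 3 of 102, at -0.01 for amosite against saline under normexp, and at -0.05 (without chrysotile array 2) and -0.19 (without crocidolite array 1) for chrysotile against crocidolite. Normexp gave Ereg 0.48, 0.26 and 0.11 against saline, which by construction compresses dim probes through its offset of 50. Ereg could not be fitted with probes bright on all arrays, since saline array 2 was below background. The deposited values, the replicate block, the trended and robust prior and the fit of 2 groups alone leave every difference of means unchanged.

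Counts of other members and of list genes passing the adjusted threshold were 0 in all 102 settings each. With the replicate block the lowest adjusted p was 0.473 among members and 0.282 among list genes against saline, and over all settings 0.0851 for list genes. The block changed no call. The 95% interval of Egfr with chrysotile spanned -0.90 to 0.39 without the block, and the block lowered its SE from 0.27 to 0.099.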
